A study of Mus musculus with 15 samples.

Results

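The stretches of the mouse genome described here, 3000 bp windows, carried H3K27Ac before C/EBPα was induced and had lost at least 0.5 of it 3 h later. They were selected on H3K27Ac itself. Chromosomes 1 to 19 and X of mm9 were tiled into 3000 bp windows from position 0, and the level of a window in a library, F, is its number of distinct tag positions over the library mean of windows with a tag in any library. A window was kept when its H3K27Ac F was 3 or more at 0 hours post-induction (hpi), when F at 3 hpi was at most 0.5 of the 0 hpi value, and when F at 48 hpi was below 1.5. Of 879660 windows, 832530 held a tag and 40030 had an H3K27Ac F of 3 or more at 0 hpi. The 3 conditions left 1942 windows, which is 4.85% of the 40030, and these are called early-loss windows. The number depends on the scaling. It was 1208 when libraries were scaled by windows high at all 5 times and 2387 when they were scaled by background windows, with an F under 1 at all 5 times.

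The libraries are chromatin immunoprecipitations followed by sequencing (ChIP-seq) for H3K27Ac, H3K4Me1 and H3K27Me3 in C10 cells at 0, 3, 12, 24 and 48 hpi, 15 libraries with 1 for each mark and time. C10 is a mouse pre-B cell line derived from HAFTL cells that carries C/EBPαER, a fusion of the myeloid factor C/EBPα with an estrogen receptor domain, together with GFP, and it becomes macrophage-like after induction. By the sample labels, induction was by 100 nM β-estradiol in the presence of IL-3 and CSF-1 at 10 nM each, and control cells received the solvent, 0.1% ethanol. The methods of the study give the β-estradiol dose in micromolar instead, and which unit is right is not known here. The labels do not say whether the 0 hpi libraries came from ethanol-treated cells. With 1 line and 1 library per mark and time no difference between times could be tested. The 95% intervals on tag counts and on ratios of tags cover counting error only. Those on shares treat windows as independent, although some adjoin, and no interval covers the spread between libraries. A loss of the mark in some of the cells cannot be told apart from a lower level in each cell.

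H3K27Ac is the acetylation of a lysine in the tail of histone H3 that is found at active enhancers and promoters and is written by acetyltransferases such as P300. H3K4Me1 is found at enhancers whether they are active or poised, and H3K27Me3 is the mark of Polycomb repression. In pre-B cells, enhancers bound by factors such as Ebf1, Pax5 and E2A keep the genes of the pre-B receptor and of antigen receptor recombination active, and these genes are silent in macrophages.

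The libraries held 15216488 to 17528865 distinct tag positions for H3K27Ac, 10913733 to 17508384 for H3K4Me1 and 15338280 to 31541879 for H3K27Me3. The cells matched their label at gene starts, where H3K27Ac F in 3000 bp was 3 or more at 9 of 9 B lineage marker genes at 0 hpi and at 8 of 9 at 48 hpi, while the count for macrophage markers went from 5 of 9 to 9 of 9. The summed F of the B lineage list went from 547 to 193 and that of the macrophage list from 97.0 to 338. The starts of the T cell genes Cd3e, Cd4 and Cd8a held 1 to 9 tags in each library and that of Gata3 held 213 to 627. Those of the erythroid genes Gata1 and Hbb-b1 held 0 to 4 and that of Klf1 held 83 to 115. The H3K27Ac libraries differed in their floor: the median F of windows with a tag was 0.219, 0.332, 0.255, 0.142 and 0.203 at the 5 times, so the 3 hpi library had the highest floor of the 5, and its part in the falls at 3 hpi was not tested.

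The sequences of 8 early-loss windows are printed because they stand for the windows with the largest H3K27Ac falls and for those near B lineage genes. Each is the 300 bases of the window with the most H3K27Ac tag positions at 0 hpi. They are read from mm9 on the plus strand, 5′ to 3′, and the choice left out annotated untranslated regions. The first 4 belong to the windows with the largest falls of F from 0 to 3 hpi. The Grb10 sequence is chr11:11840339-11840638, in a window centred inside the gene and 882 bp from an annotated transcription start. The Lpin1 sequence, chr12:16441086-16441385, and the Foxf2 sequence, chr13:31752392-31752691, lie between genes and are named by the nearest coding gene. The Gm12824 sequence, chr4:114274170-114274469, lies in an intron of that gene model. The other 4 belong to the window with the highest H3K27Ac at 0 hpi near each of the B lineage gene lists, and each lies between genes. They are chr4:32319544-32319843 near Bach2, chr1:197027550-197027849 near Cr2, chr19:41085429-41085728 near Dntt and chr11:99032432-99032731 near Ccr7. Capitals mark matches, on either strand, to 10 sets of motif letters: CCCNNGGG (Ebf1), CAGGTG and CAGCTG (E2A E-boxes), AGGAAGT (Ets and PU.1), TGTGGT (Runx), TGTTTAC (Foxo), ATTTGCAT (Oct), GGGNNTTCC (NF-kB), TTGCNNAA (C/EBP) and TGANTCA (AP-1).
Grb10: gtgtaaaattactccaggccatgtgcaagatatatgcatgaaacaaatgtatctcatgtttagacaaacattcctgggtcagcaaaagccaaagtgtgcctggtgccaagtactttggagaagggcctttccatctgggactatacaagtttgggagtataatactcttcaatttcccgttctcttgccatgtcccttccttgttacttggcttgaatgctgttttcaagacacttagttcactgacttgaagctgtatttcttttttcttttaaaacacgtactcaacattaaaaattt
Lpin1: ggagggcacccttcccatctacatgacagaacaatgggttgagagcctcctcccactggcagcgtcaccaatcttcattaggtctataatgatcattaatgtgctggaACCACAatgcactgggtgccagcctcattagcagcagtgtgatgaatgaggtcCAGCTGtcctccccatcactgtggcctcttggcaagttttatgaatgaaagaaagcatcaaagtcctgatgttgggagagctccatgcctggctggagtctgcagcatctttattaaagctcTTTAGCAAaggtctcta
Foxf2: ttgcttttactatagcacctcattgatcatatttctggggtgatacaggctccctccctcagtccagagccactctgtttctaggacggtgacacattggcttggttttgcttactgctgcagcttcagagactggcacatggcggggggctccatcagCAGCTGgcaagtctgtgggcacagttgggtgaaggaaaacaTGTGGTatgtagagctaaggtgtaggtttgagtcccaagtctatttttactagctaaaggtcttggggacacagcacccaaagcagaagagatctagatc
Gm12824: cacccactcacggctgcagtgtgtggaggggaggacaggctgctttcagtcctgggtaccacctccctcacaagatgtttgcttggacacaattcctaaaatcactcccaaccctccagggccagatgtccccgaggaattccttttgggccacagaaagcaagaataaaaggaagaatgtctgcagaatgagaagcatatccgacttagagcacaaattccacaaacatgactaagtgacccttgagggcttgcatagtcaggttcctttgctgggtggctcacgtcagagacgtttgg
Bach2: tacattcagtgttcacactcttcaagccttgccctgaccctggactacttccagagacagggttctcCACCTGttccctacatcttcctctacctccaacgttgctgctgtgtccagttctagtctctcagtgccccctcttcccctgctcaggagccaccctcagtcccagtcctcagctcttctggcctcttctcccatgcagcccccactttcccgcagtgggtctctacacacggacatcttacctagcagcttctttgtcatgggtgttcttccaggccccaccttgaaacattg
Cr2: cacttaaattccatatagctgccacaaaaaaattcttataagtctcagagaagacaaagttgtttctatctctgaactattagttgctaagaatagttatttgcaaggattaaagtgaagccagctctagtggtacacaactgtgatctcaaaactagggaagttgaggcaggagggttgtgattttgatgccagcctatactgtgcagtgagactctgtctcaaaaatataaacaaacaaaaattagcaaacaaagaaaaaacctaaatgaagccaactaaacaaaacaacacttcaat
Dntt: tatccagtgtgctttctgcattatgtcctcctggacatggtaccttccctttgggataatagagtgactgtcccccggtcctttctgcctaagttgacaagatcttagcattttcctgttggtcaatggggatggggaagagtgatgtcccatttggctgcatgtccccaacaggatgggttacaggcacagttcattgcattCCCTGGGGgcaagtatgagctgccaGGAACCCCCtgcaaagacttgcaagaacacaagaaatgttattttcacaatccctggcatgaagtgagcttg
Ccr7: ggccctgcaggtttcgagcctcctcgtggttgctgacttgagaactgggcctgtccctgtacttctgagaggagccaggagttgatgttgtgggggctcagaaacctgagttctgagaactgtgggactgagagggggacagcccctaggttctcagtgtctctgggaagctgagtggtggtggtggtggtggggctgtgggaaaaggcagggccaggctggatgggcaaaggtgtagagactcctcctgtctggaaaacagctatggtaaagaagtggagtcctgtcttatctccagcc

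The Lpin1 sequence held a CAGCTG E-box, a Runx match and a C/EBP match, and the Foxf2 sequence held a CAGCTG E-box and a Runx match. The Bach2 sequence held a CAGGTG E-box, and the Dntt sequence held an Ebf1 core and an NF-kB match. None of the letters occurred in the Grb10, Gm12824, Cr2 and Ccr7 sequences. A match is a run of letters and not a shown binding site, and its absence from 300 bases says nothing of a factor.

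The tags of these 300 bases are a description. Each stretch was picked for the most tags at 0 hpi in a window chosen for its fall, which favours a lower count at 3 hpi. The stretch near Foxf2 held 99 H3K27Ac tags at 0 hpi and 9 at 3 hpi, and that near Dntt 43 and 5. The stretch near Bach2 kept more, with 111 tags at 0 hpi and 37 at 3 hpi, but held 3 at 12 hpi and 0 at 24 hpi. The stretch near Ccr7 held 102, 28, 13, 5 and 6 tags at the 5 times.

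Across the 1942 early-loss windows the H3K27Ac level was lower at 12 than at 3 hpi. The median F was 5.25 at 0 hpi, with quartiles of 3.78 and 7.92, and 1.71 at 3 hpi, with quartiles of 1.28 and 2.66. In the 3 later libraries it was 1.17 (0.815 to 1.78), 0.712 (0.475 to 1.14) and 0.914 (0.609 to 1.22). The values at 0, 3 and 48 hpi chose the windows and are a description. The 12 and 24 hpi libraries were not used in the choice but lie between times at which the rule set a low level. In them 1256 windows (64.7%, 95% exact binomial interval 62.5 to 66.8) and 1691 windows (87.1%, 85.5 to 88.5) were below an F of 1.5. Among all windows with an F of 3 or more at 0 hpi the same shares were 6.93% at 12 hpi and 10.9% at 24 hpi. Among the 2032 windows that were below 1.5 at 48 hpi but had not fallen to 0.5 at 3 hpi, called late-loss windows, they were 43.7% and 74.7%. Among the 6048 windows that had fallen to 0.5 at 3 hpi but had an F of 1.5 or more at 48 hpi, they were 6.20% and 9.82%. The shares thus followed the 48 hpi limit of the rule more than its 3 hpi limit. With libraries scaled to a common floor, that is by windows with an F under 1 at all 5 times, and the windows chosen again, the share below 1.5 at 24 hpi was 59.7%. The factors of that scaling were 1.28 at 3 hpi, 1.08 at 12 hpi and 0.576 at 24 hpi, relative to 1 at 0 hpi, and they turn the order of the 12 and 24 hpi medians, so no direction is given between these times.

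**Figure D1:**
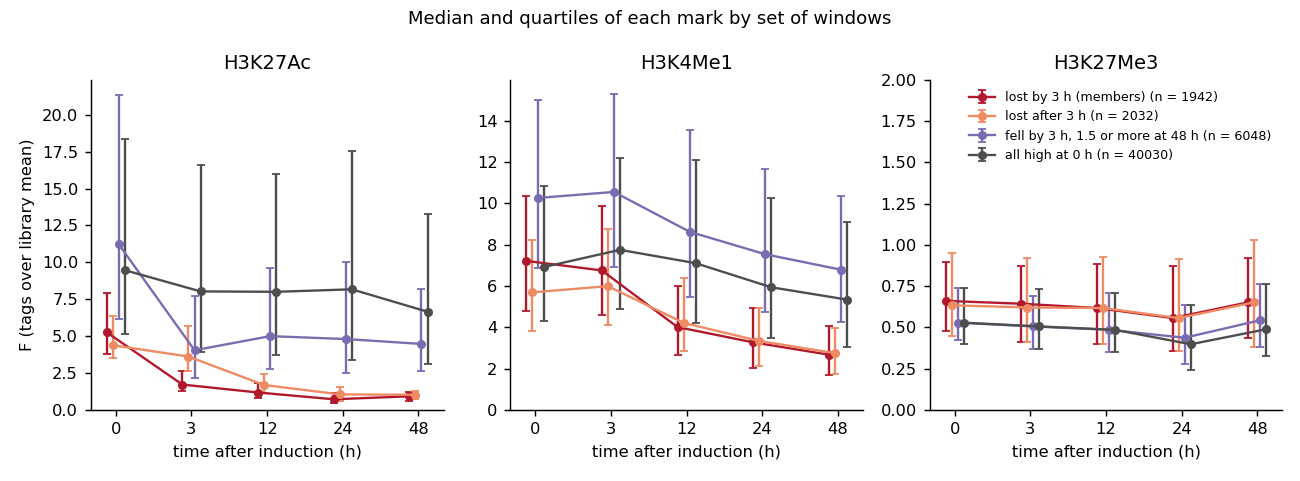
Level F (tags in a window over the library mean) of H3K27Ac, H3K4Me1 and H3K27Me3 against time after induction in h, for 4 sets of windows, with points at the median and bars from the lower to the upper quartile over windows of 1 library. In early-loss windows the H3K27Ac median goes from 5.25 to 1.71 by 3 hpi while the H3K4Me1 median goes from 7.22 to 6.75 and then to 4.01 by 12 hpi, where its median log2 change is -0.82 under the library mean and -0.12 scaled to a common floor.

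Under the library mean most of the early-loss windows were still above the 48 hpi limit at 3 hpi. The common-floor factor of 1.28 lowers the 3 hpi levels, so this may not hold with that scaling. F was below 1.5 at 3 hpi in 737 windows (38.0%), a description, since the rule used this value. It was lower at 12 than at 3 hpi in 1507 windows (77.6%), against 57.2% of all windows high at 0 hpi and 93.9% of late-loss windows. Under the library mean it was lower at 24 than at 12 hpi in 1685 (86.8%), against 48.1% and 89.0%. With the same scaling the H3K27Ac level was 3 or more at 12 hpi in 110 windows (5.66%, against 80.9% and 15.9%) and at 24 hpi in 20 (1.03%, against 77.4% and 2.21%). The common-floor factor of 0.576 raises the 24 hpi levels, so no direction between these times is drawn from these shares. F had at least doubled from 3 to 12 hpi in 65 windows (3.35%), against 7.63% of all windows high at 0 hpi and 0.148% of late-loss windows. The shares for 3 to 12 hpi start from the 3 hpi value, which the rule used to tell early-loss from late-loss windows. The median F at 3 hpi was 1.71 in early-loss and 3.61 in late-loss windows. The differences between the sets in these shares are thus in part built in, and they are a description.

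The ratio of F at 3 hpi to F at 0 hpi had a median of 0.341 over early-loss windows and a lowest value of 0.0263. A median window held 96 tags at 0 hpi and 36 at 3 hpi, with 55 to 785 at 0 hpi. The upper 95% bound of the ratio, exact binomial on both counts, was at most 0.5 in 981 of 1942 windows (50.5%), so for the others counting error reaches past the limit of the rule. A ratio of at most 0.5 was itself common, and 7990 of the 40030 windows (20.0%) met it. Of these, 6048 had an F of 1.5 or more at 48 hpi, among them 655 that were below 1.5 at 3 hpi and 594 at 24 hpi. Another 2032 windows were below 1.5 at 48 hpi without having fallen to 0.5 at 3 hpi, the late-loss windows. Of the 3974 windows that were below 1.5 at 48 hpi, 48.9% were therefore early-loss windows.

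The windows nearest to the limits show how small the steps are. The early-loss window with the lowest H3K27Ac F at 0 hpi had 3.01 (55 tags), and the highest one left out on that condition had 2.95 (54 tags). The highest ratio inside the limit was 0.499821 (132 tags at 0 hpi, 76 at 3 hpi) and the lowest one outside was 0.500031 (125 and 72 tags). At 48 hpi the highest F inside was 1.47 (29 tags) and the lowest outside was 1.52 (30 tags).

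The rule used the 0 hpi level and an absolute limit at 48 hpi, so windows that started low entered more easily, and the levels at 0 hpi are a description. F at 0 hpi lay between 3 and 5 in 918 of them (47.3%), between 5 and 10 in 726 (37.4%), between 10 and 20 in 249 (12.8%) and at 20 or more in 49 (2.52%). The 40030 windows numbered 9589, 11280, 10278 and 8883 in these classes. A fall to at most 0.5 by 3 hpi was about as frequent at each of these levels, 20.2%, 21.3%, 18.99% and 19.1% of windows. Of the windows below 1.5 at 48 hpi, early-loss windows made up 42.8%, 54.7%, 59.4% and 59.8% in these classes, also values that the rule used.

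The 8 windows with the largest falls, 1 from each run of adjoining windows, started at an H3K27Ac F between 28.0 and 42.9. The window in Grb10, an adaptor that binds the insulin receptor, held 785 tags at 0 hpi (95% Poisson interval 731 to 842), then 186, 111, 104 and 26. Its ratio at 3 hpi was 0.206 (0.174 to 0.242), and it stayed at an F of 4.94 at 24 hpi before reaching 1.32 at 48 hpi.

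The window 155075 bp from the start of Lpin1, a phosphatidate phosphatase, held 716, 182, 38, 13 and 19 tags. The window 35816 bp from Foxf2, a forkhead factor, held 647, 123, 71, 23 and 17. The window in the gene model Gm12824 held 527, 79, 19, 9 and 19, and its ratio of 0.130 (0.101 to 0.165) was the lowest of the 8. F at 24 hpi was 0.617 near Lpin1, 1.09 near Foxf2 and 0.427 in Gm12824, each lower than in the Grb10 window at that time.

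The window 72668 bp from Ywhaz, which encodes a 14-3-3 protein, had the highest ratio of the 8 at 3 hpi, with 711, 318, 95, 74 and 21 tags, and its H3K4Me1 was 124, 259, 315, 178 and 153 tags, or an F of 7.27 at 0 hpi and 11.7 at 48 hpi. The window 5367 bp from the start of Tanc1, a scaffold protein, held 564, 169, 95, 43 and 29. That 192217 bp from Car10, a protein related to carbonic anhydrases, held 533, 135, 59, 34 and 23, and that in Rnf213, a ubiquitin ligase, held 511, 139, 30, 12 and 13. The 8 counts at 3 hpi, 79 to 318 tags, did not overlap those at 0 hpi, 511 to 785 tags, a separation that the choice of these windows fixes.

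**Figure D2:**
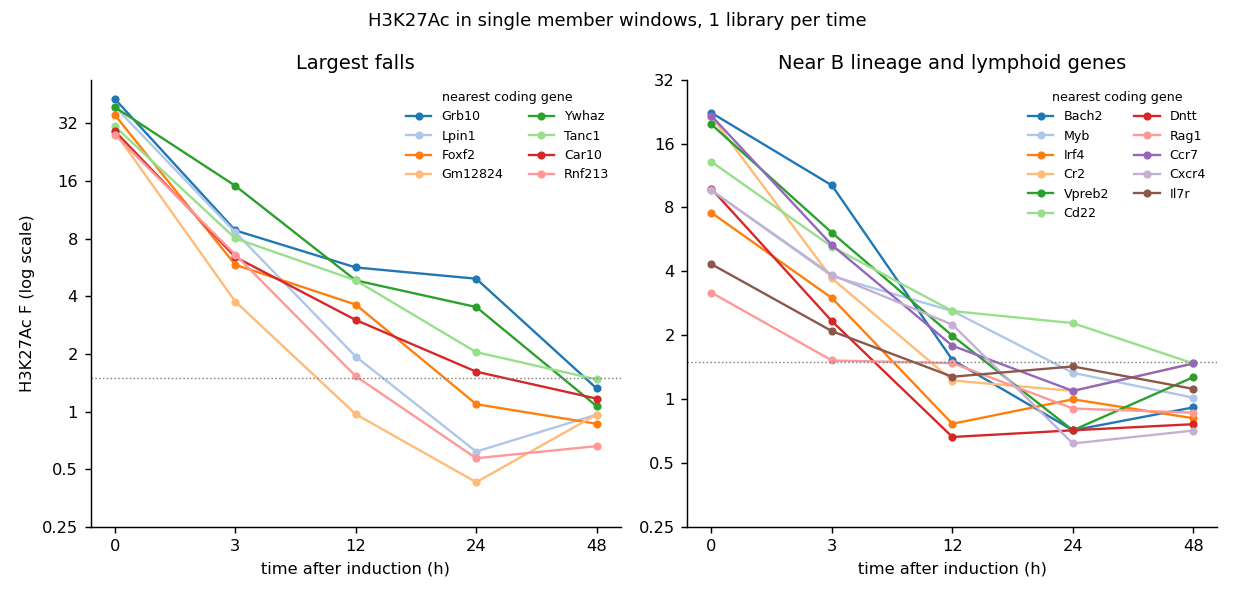
H3K27Ac F on a log scale against time after induction in h for single early-loss windows, 1 line per window named by its nearest coding gene, with 1 library per time and the limit of 1.5 as a dotted line. The left panel has the 8 largest falls and the right panel the 11 windows named near B lineage and lymphoid genes, where F at 0 hpi runs from 3.17 near Rag1 to 22.3 near Bach2.

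H3K4Me1, which was not used to choose the windows, had a lower median in them at 12, 24 and 48 hpi than at 0 hpi, by an amount that depended on the scaling. The floor of the H3K4Me1 libraries fell over this time, with a median F over all windows with a tag of 0.352 at 0 hpi and 0.203 at 12 hpi. The order of the marks in time follows in part from the rule, which set the H3K27Ac fall at 3 hpi. Under the library mean the median H3K4Me1 F in early-loss windows was 7.22, 6.75, 4.01, 3.27 and 2.67 at the 5 times, and 1896 of 1942 windows had an H3K4Me1 F of 2 or more at 0 hpi (97.6%, against 95.02% of all windows high in H3K27Ac). Of these 1896, 6 (0.316%) were at most 0.5 of their 0 hpi level at 3 hpi. This number was 728 (38.4%) at 12 hpi, 1157 (61.0%) a day after induction and 1423 (75.1%, 73.0 to 77.0) by 48 hpi. Over all windows with H3K27Ac F of 3 or more at 0 hpi the share was 0.0394% at 3 hpi, 4.404% and 11.2% at the next times and 19.1% at 48 hpi. In late-loss windows it was 0.0524%, 13.7%, 35.4% and 54.1%. For the same windows with libraries scaled to a common floor, the share at 12, 24 and 48 hpi was 6.70%, 15.2% and 30.7% of early-loss windows, against 0.568%, 1.67% and 4.37% of all windows high at 0 hpi and 1.15%, 5.77% and 17.0% of late-loss windows.

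The median log2 change of H3K4Me1 in early-loss windows, with 1 tag added to each count, was -0.08 at 3 hpi under the library mean and 0.26 with libraries scaled to a common floor, so its direction at 3 hpi depends on the scaling. It was -0.82 and -0.12 at 12 hpi, -1.13 and -0.33 at 24 hpi, and -1.41 and -0.64 at 48 hpi, each under the library mean and then with the common floor. Under the library mean the median over all windows high in H3K27Ac at 0 hpi was 0.17 at 3 hpi and -0.35 at 48 hpi, and that over late-loss windows was 0.09 and -1.02. The early-loss median was lower than both at each of the 4 times after induction, also with the common floor, where the median over all windows high at 0 hpi was 0.77 at 12 hpi and 0.43 at 48 hpi.

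Under the library mean the median fall of H3K4Me1 at 12 and 48 hpi was larger where H3K27Ac had fallen further. Another scaling shifts the 4 classes alike, so their order stays while the size of the change does not. With the common floor the median over all early-loss windows was -0.12 at 12 hpi and -0.64 at 48 hpi. In the 195 windows with a 3 hpi to 0 hpi ratio of H3K27Ac up to 0.2 the median log2 change of H3K4Me1 was -1.04 at 12 hpi and -1.53 at 48 hpi. In the 608 windows with a ratio above 0.4 it was -0.67 and -1.31, and the 2 classes between lay between these values. At 3 hpi the medians of the 4 classes, from the lowest ratio, were -0.10, -0.12, -0.08 and -0.04, with no such order. Under the library mean 1270 of the 1942 windows (65.4%) had an H3K4Me1 F of 2 or more at 48 hpi. This share was 87.4% of all windows high at 0 hpi and 67.7% of late-loss windows. An F below 1.5 was found in 402 (20.7%), against 7.29% and 19.2%. The common-floor factor of 0.585 at 48 hpi raises these levels, and the shares were not computed with it.

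**Figure D3:**
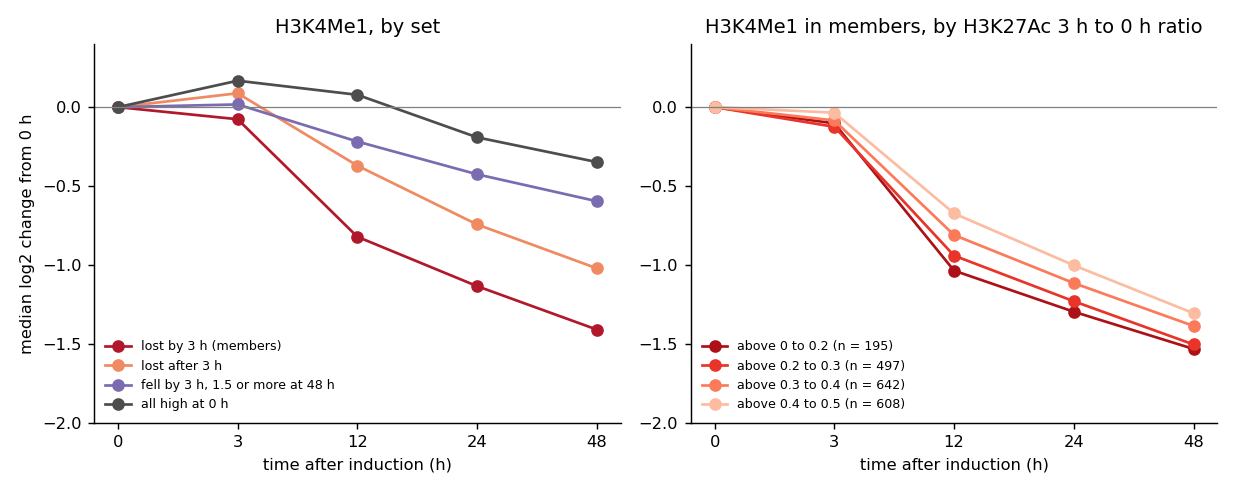
Median log2 change of H3K4Me1 from 0 hpi under the library mean, with 1 tag added, against time after induction in h, for 4 sets of windows (left) and for early-loss windows divided by their H3K27Ac ratio of 3 hpi to 0 hpi (right). The early-loss median is -1.41 at 48 hpi against -0.35 over all windows high at 0 hpi, and windows with the lowest H3K27Ac ratio are at -1.04 at 12 hpi.

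Single windows ranged widely in H3K4Me1. The largest fall was 3013 bp upstream of Vpreb2, which encodes part of the surrogate light chain of the pre-B receptor, with 192, 175, 54, 18 and 6 H3K4Me1 tags at the 5 times. H3K27Ac in that window was 275, 76, 12, 11 and 14 tags, so at 3 hpi H3K27Ac was at 0.240 of its level (0.184 to 0.310), while the H3K4Me1 F was 11.3 at 0 hpi and 8.32 at 3 hpi. The next largest fall, in a window between genes with Xrcc6bp1 as the nearest coding gene, went from 84 to 4 H3K4Me1 tags. At the other end, H3K4Me1 was 26 tags at 0 hpi and 49 at 48 hpi in a window 60038 bp from Slc4a7, a bicarbonate transporter. This window was at the lower limit for H3K27Ac with 55 tags at 0 hpi.

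H3K27Me3 was low in early-loss windows throughout. Its median F was 0.660, 0.643, 0.617, 0.556 and 0.651 at the 5 times. Over all windows high in H3K27Ac at 0 hpi it was lower, 0.528, 0.505, 0.485, 0.397 and 0.489. In late-loss windows it was 0.633 at 0 hpi and 0.651 at 48 hpi. The median log2 change in early-loss windows at 48 hpi was 0.04, with the same median of 0.04 over all windows high in H3K27Ac at 0 hpi. With libraries scaled by windows rich in H3K27Me3 the early-loss median was -0.15, so no direction is given. An F of 2 or more was found in 43 windows (2.21%) at 0 hpi and in 80 (4.12%, 3.28 to 5.10) at 48 hpi, beside 2.56% and 3.25% of all windows high in H3K27Ac at 0 hpi and 3.89% and 6.45% of late-loss windows. The largest rise among them was 7434 bp upstream of Grap2, an adaptor protein of antigen receptor signalling, with 30 H3K27Me3 tags at 0 hpi and 46 at 48 hpi, or an F of 0.792 and 2.50. In an intron of the kinase gene Nuak1 the counts were 25 and 37, or 0.660 and 2.01.

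Early-loss windows were mostly single and lay away from gene starts more often than other windows high at 0 hpi. They formed 1687 runs, of which 1474 were 1 window alone, 180 were pairs, 28 were triplets and 5 were longer, and the limits of the rule cut these runs. The window centre was over 2500 bp from an annotated transcription start in 1708 windows (88.0%, 86.4 to 89.4), against 60.3% of all windows high at 0 hpi and 83.4% of late-loss windows. By place, 964 lay between genes (49.6%), 694 in introns (35.7%), 50 in exons (2.57%) and 234 within 2500 bp of a start (12.0%). The median distance to the nearest coding gene start was 32323 bp, against 8470 bp for windows high at 0 hpi and 26324 bp for late-loss windows.

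The course of the marks was compared between places. At the 234 windows near a start the median H3K27Ac F in the first 3 libraries was 5.53, 1.80 and 1.48, and between genes it was 5.31, 1.71 and 1.12. The median log2 change of H3K4Me1 at 48 hpi was -1.28 near starts, -1.40 in introns and -1.43 between genes. GC content was 45.1% in early-loss windows, 43.7% in late-loss windows and 46.5% in windows high at 0 hpi, and the median number of CpG per window was 28, 28 and 37. When the 40030 windows were divided by GC into 3 classes of nearly equal size, a ratio of at most 0.5 at 3 hpi was met by 19.6% of the low, 22.9% of the middle and 17.4% of the high class.

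The longest run covered 7 windows, chr4:114267001-114288000, in the gene model Gm12824. Its H3K27Ac tags were 1577, 260, 100, 67 and 83 at the 5 times, while H3K4Me1 held 1905, 1872, 660, 447 and 328. The mean H3K27Ac F of the run was 12.3 at 0 hpi and 1.76 at 3 hpi, with H3K4Me1 at 15.96 and 12.7. The run of 5 windows at chr13:95775001-95790000 in Wdr41, with Pde8b as the nearest coding start, held 1106, 319, 125, 105 and 103 H3K27Ac tags. The run of 4 windows at chr11:99030001-99042000, 15110 to 24110 bp upstream of Ccr7, held 621, 183, 81, 50 and 61. The mean H3K4Me1 F at 0 and 3 hpi was 13.8 and 14.2 in the Pde8b run, where H3K27Ac was 12.1 and 3.03. It was 7.51 and 7.19 in the Ccr7 run, where H3K27Ac was 8.49 and 2.17.

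**Figure D4:**
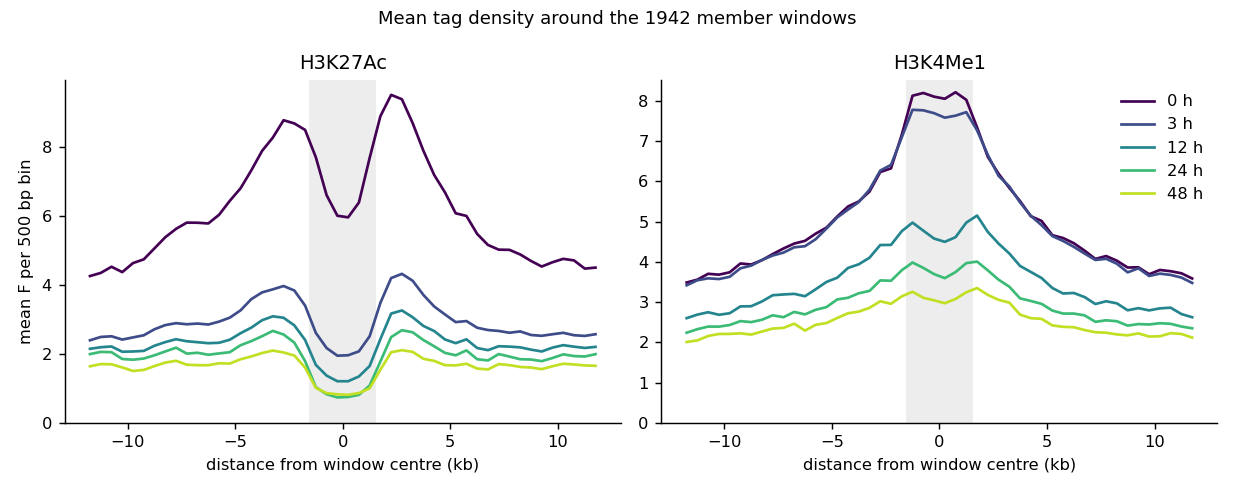
Mean F per 500 bp bin against distance from the window centre in kb for H3K27Ac (left) and H3K4Me1 (right) over the 1942 early-loss windows, 1 line per time, with the window shaded. H3K27Ac at 0 hpi is 5.96 just right of the centre and 8.90 beyond the window edge at 1750 bp, and at 3 hpi it is 1.96 and 3.48, while the H3K4Me1 lines of 0 and 3 hpi nearly overlie each other at 8.05 and 7.58.

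Early-loss windows bordered on other H3K27Ac at 0 hpi in shares near those of all windows high then, and at 48 hpi in the share of late-loss windows. At 0 hpi 1390 (71.6%) had a neighbouring window with an F of 3 or more, and at 48 hpi 617 did (31.8%, 29.7 to 33.9), against 73.7% and 68.1% of all windows high at 0 hpi. In late-loss windows the shares were 64.6% and 31.8%. In the mean profile the flanks were higher than the windows at 0 hpi, and they too were lower at 3 hpi, 8.90 against 3.48 at 1750 bp from the centre. The rule limited the 48 hpi level inside the window and not beside it. The 1145 neighbours with an F of 3 or more at 0 hpi that were no early-loss windows themselves had a median H3K27Ac F of 16.5, 6.70, 4.89, 3.66 and 3.20 at the 5 times. Of these, 661 (57.7%, 54.8 to 60.6) were at most 0.5 of their 0 hpi level at 3 hpi, beside the 20.0% of all windows high at 0 hpi. The 20.0% includes the 1942 early-loss windows, which all met this limit, while the neighbours leave them out. Each neighbour adjoins a window chosen for its 3 hpi fall, so this share is a description.

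The motif letters were also counted in the 300 bases with most 0 hpi tags of each window high in H3K27Ac. Among early-loss windows the CAGCTG E-box was in 374 (19.3%, 17.5 to 21.1), against 17.0% of all windows high at 0 hpi, and the CAGGTG E-box was in 420 (21.6%) against 20.6%. The Runx letters were in 437 (22.5%) against 20.7%, and the Ets and PU.1 letters in 180 (9.27%) against 9.93%. In late-loss windows Runx was in 24.4%, CAGCTG in 17.4%, CAGGTG in 18.6% and the Ets and PU.1 letters in 9.15%. They were in 24.6%, 18.6%, 22.0% and 10.9% of windows that fell to 0.5 at 3 hpi but kept 1.5 or more at 48 hpi. The Runx share of early-loss windows was thus not above that of either set. Their E-box shares were near those of the windows that fell but kept 1.5 or more. The Ebf1 core was in 167 (8.60%, 7.39 to 9.94), against 13.0% of all windows high at 0 hpi and 9.30% of late-loss windows. The other 5 lay within 2 percentage points of the windows high at 0 hpi. GC content was 47.0% in the 300 bases of early-loss windows and 49.7% in those of all windows high at 0 hpi, and its part in these shares was not tested. In the middle 300 bases of all windows with a tag the CAGCTG letters were in 10.7%, CAGGTG in 17.2% and Runx in 20.1%. The Ets and PU.1 letters were in 7.05% and the Ebf1 core in 4.76%. For Foxo, Oct, NF-kB, C/EBP and AP-1 the shares were 4.54%, 2.61%, 2.84%, 13.7% and 8.84%. In early-loss windows these 5 were 5.05%, 2.01%, 3.81%, 10.6% and 8.96%. The middle bases were not picked by tags and their GC content is not given here, so these shares are a description.

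The nearest coding gene start was within 100 kb for 1519 early-loss windows, and these windows were spread over 1005 genes, 709 of them with 1 window. Among the 36723 windows high at 0 hpi that lay within 100 kb of a coding start, 4.14% were early-loss windows. The 11 gene lists were described by this share without a test. It was 5.07% near B lineage transcription factors (15 of 296 windows), 9.38% near genes of the pre-B receptor and the B cell surface (12 of 128), 6.67% near V(D)J recombination genes (2 of 30) and 14.8% near lymphoid cytokine and chemokine receptors (12 of 81). It was 1.205% near myeloid transcription factors (1 of 83), 3.54% near macrophage effectors (4 of 113), 1.92% near NF-kB genes (1 of 52), 7.27% near T lineage genes (4 of 55) and 3.45% near erythroid and stem cell genes (1 of 29). No early-loss window was near the 28 cell cycle and growth genes (0 of 102) or the 10 genes used by every cell (0 of 39). Counts of 1 to 15 windows leave these shares imprecise, and 11 of the 12 windows of the lymphoid receptor list belong to Ccr7 and Cxcr4.

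**Figure D5:**
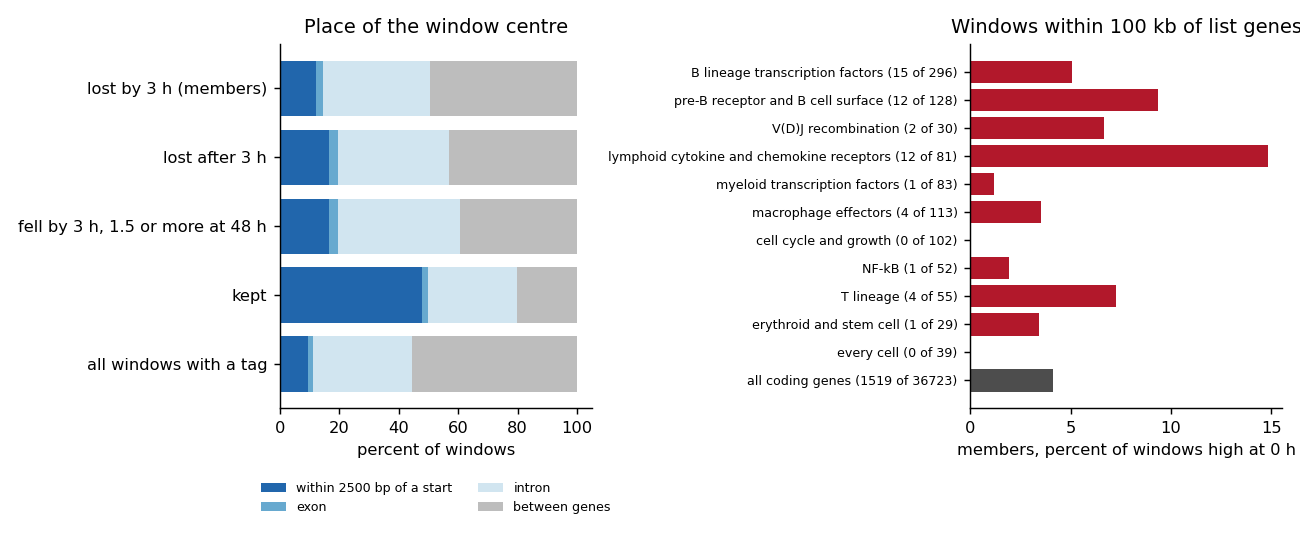
Left, the place of the window centre as a percent of windows for 5 sets. Right, early-loss windows as a percent of the windows high in H3K27Ac at 0 hpi within 100 kb of the coding starts of each gene list, with counts beside the names and the share over all coding genes in grey. Early-loss windows have 12.0% of their centres near a start, and their share is 14.8% near lymphoid receptors against 4.14% over all coding genes.

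Of all coding genes, 1005 of 22202 had an early-loss window within 100 kb, with 36723 windows high at 0 hpi within that distance. The 18 B lineage transcription factors alone had 296 such windows. Per window high at 0 hpi the share was 5.07% near them against 4.14%, so counts of genes are a description. Among these 18 genes, 8 had an early-loss window within 100 kb. They were Bach2 with 4, Lef1 with 3, Myb and Irf4 with 2 each, and Pou2f2, Spib, Irf8 and Sox4 with 1 each. The other 10 genes had 0 early-loss windows within that distance among 3 (Ikzf3) to 30 (Tcf4) windows high at 0 hpi, and the early B cell factors Pax5, Ebf1 and Tcf3 were among them, with 14, 13 and 10 such windows. The window 5278 bp upstream of Bach2, a repressor that keeps B cells from maturing early, held 408, 214, 30, 15 and 18 H3K27Ac tags at the 5 times. Its ratio at 3 hpi was 0.455 (0.384 to 0.539), and F was 22.3, 10.2 and 1.53 in the first 3 libraries. H3K27Ac in the 3000 bp around the start of Bach2 was 515, 406, 202, 186 and 99 tags.

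The window 60711 bp upstream of Myb, a factor of progenitor cells, held 176, 80, 51, 28 and 20 H3K27Ac tags, whereas the start of Myb held 765, 1155, 503, 315 and 105. At 3 hpi the distant window and the gene start had thus moved in opposite directions in tag count. The window 29594 bp upstream of Irf4, a factor of B cell maturation, held 138, 63, 15, 21 and 16 tags with 387, 427, 285, 302 and 114 at the start. At Lef1, a Wnt pathway factor, the 3 windows together held 251, 73, 41, 40 and 45 tags, and the start held 1154, 1041, 538, 555 and 231. At each of these starts the 48 hpi count was the lowest, and the 3 hpi library was the deeper one by mean tags per window, 21.1 against 18.3 at 0 hpi.

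Among genes of the pre-B receptor and the B cell surface, 7 of 20 had an early-loss window, against 1005 of 22202 coding genes. Per window high at 0 hpi the share was 9.38% (12 of 128) against 4.14%. The 7 genes were Vpreb2 with 3, Cd79b, Cd22 and Cr2 with 2 each, and Blnk, Syk and Cd72 with 1 each. The window 23592 bp upstream of Cr2, which encodes complement receptor CD21, held 392, 78, 24, 23 and 29 tags, a ratio of 0.173 (0.134 to 0.221) at 3 hpi. Its H3K4Me1 was 203, 329, 271, 114 and 81 tags, higher at 3 and 12 hpi than at 0 hpi in tag count.

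The window 9013 bp upstream of Vpreb2 held 360, 128, 39, 15 and 25 H3K27Ac tags, and the 3 windows of this gene together held 699, 220, 66, 31 and 48. The start of Vpreb2 was also lower at 3 hpi, with 1134, 467, 200, 82 and 62 tags. At Cd22, an inhibitory co-receptor of the B cell receptor, the window 7140 bp upstream held 240, 110, 51, 48 and 29 tags and the start 582, 297, 315, 226 and 150. At Cd79b, a signalling chain of the B cell receptor, the 2 windows held 140, 59, 61, 51 and 48 tags, and the start held 1269, 527, 908, 915 and 575, so the start was higher at 12 than at 3 hpi.

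Of the V(D)J recombination genes, Rag1 and Dntt had 1 early-loss window each. The window 17264 bp upstream of Dntt, the terminal transferase that adds bases at V(D)J joins, held 179, 49, 13, 15 and 15 H3K27Ac tags and 317, 379, 147, 63 and 63 H3K4Me1 tags. This window, chr19:41085001-41088000, lies between the Dntt start at 41103765 and the Blnk start at 41069025, nearly as far from each. Blnk is in the pre-B receptor list, so the naming by Dntt rests on a small difference in distance. The start of Dntt held 578, 581, 143, 119 and 76 H3K27Ac tags. The ratio of the upstream window at 3 hpi was 0.238 (0.170 to 0.328). The window in an exon of Rag1, the recombinase, stood near the lower limit with 58, 32, 29, 19 and 17 H3K27Ac tags, while H3K4Me1 was 216, 200, 68, 30 and 28. The Rag1 start held 198, 55, 26, 26 and 34 tags.

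Of the lymphoid cytokine and chemokine receptors, Ccr7 had 6 early-loss windows of 9 high at 0 hpi, Cxcr4 had 5 of 19 and Il7r had 1 of 30. The window 15110 bp upstream of Ccr7, a receptor for homing to lymph nodes, held 395, 112, 35, 23 and 29 H3K27Ac tags. The 6 windows reached to 110 bp from the Ccr7 start and together held 782, 248, 118, 74 and 104. At Cxcr4, the receptor that holds precursors in the bone marrow, the 5 windows lay 39631 to 63631 bp away and held 531, 178, 140, 59 and 103 tags, and the start held 844, 817, 519, 510 and 349. At Il7r, the receptor for interleukin 7, the window 57870 bp away held 79, 44, 25, 30 and 22 tags and the start 1132, 1193, 541, 734 and 500.

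A few early-loss windows lay near genes of other lineages. At Tlr2, a sensor of bacterial lipoproteins in macrophages, a window 31188 bp from the start held 145, 60, 52, 26 and 22 H3K27Ac tags, while the start went from 142 to 300, 520, 861 and 724. At Itgam, the integrin CD11b, a window in an intron held 82, 27, 14, 18 and 24, and the start 10, 13, 28, 129 and 100. Mrc1, the mannose receptor, had 2 windows with 147, 62, 44, 43 and 40 tags, and the Klf4 window held 89, 38, 31, 11 and 7. At Nfkb2, a subunit of NF-kB, a window 60726 bp away held 77, 33, 25, 7 and 16 tags and the start 329, 517, 512, 623 and 437. At Tlr2, Itgam and Nfkb2 the window and the gene start went opposite ways between 0 and 24 hpi.

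Near T lineage genes, the 2 windows of Cd247, a chain of the T cell receptor complex, held 249, 117, 58, 32 and 44 tags with 4 to 16 at the start. The window near Cd2, an adhesion molecule of lymphocytes, held 60, 22, 32, 26 and 21 tags and that near Cd28, a co-stimulatory receptor, held 56, 25, 35, 15 and 16. The start of Cd28 held 187, 26, 120, 117 and 108 tags, lower at 3 hpi than at the other times. In the erythroid and stem cell list the window in Lmo2, a cofactor of Tal1, held 103, 55, 64, 38 and 21.

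The 5 genes with the most early-loss windows were in none of the lists. Trp53i11, a gene named for induction by p53, had 10 of its 19 windows high at 0 hpi, with 2050, 741, 221, 136 and 165 H3K27Ac tags at the 5 times. H3K4Me1 in these 10 windows was 2293, 2313, 1470, 877 and 565 tags. Emid1 had 7 of 13 windows, with 1115, 332, 162, 121 and 142 H3K27Ac tags. Svopl had 7 of 11, with 1223, 466, 204, 100 and 89, and its start went from 712 to 266, 131, 53 and 28.

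Mtss1, an actin-binding protein, had 7 of 37 windows with 1227, 557, 259, 157 and 144 H3K27Ac tags. Insm1, a zinc finger factor, had 7 of 18 with 641, 232, 115, 84 and 100, while its start held 2 to 9 tags in each library. Windows are named by the nearest coding start, and whether they act on that gene was not measured.

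Gene starts were then compared over all coding genes with H3K27Ac F of 3 or more in the 3000 bp around the start at 0 hpi and no early-loss window within 3 kb. Of 9772 such genes, 2.04% were at most 0.5 of their 0 hpi level at 3 hpi and 15.8% at 48 hpi. Of the 525 among them that were nearest to an early-loss window within 100 kb, 41 (7.81%, 5.66 to 10.4) were at most 0.5 at 3 hpi. The number was 74 (14.1%) at 12 hpi, 107 (20.4%) a day after induction and 180 (34.3%, 30.2 to 38.5) at the end. Over the 9772 the shares at 12 and 24 hpi were 3.48% and 7.59%. The median log2 change at these 525 starts was -0.07 at 3 hpi and -0.69 at 48 hpi, against 0.13 and -0.30 over the 9772. At 48 hpi 10 of the 525 starts (1.90%) had at least doubled, near the 2.28% of the 9772.

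The 3 windows with the highest H3K27Ac F at 12 or 24 hpi are a description, since picking them so among windows low at 3 hpi favours a level above that of 3 hpi. The window near the start of Kif20a, a mitotic kinesin, held 145, 76, 134, 21 and 23 tags, and the window in an intron of Upk3b held 78, 25, 133, 51 and 22. The window 410820 bp from the start of Ebf1, a factor that specifies B cells, held 185, 71, 128, 71 and 15 H3K27Ac tags and 115, 178, 86, 20 and 21 H3K4Me1 tags.

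Within annotated antigen receptor loci there were 21 early-loss windows: 12 of 105 windows high at 0 hpi at the immunoglobulin heavy chain locus on chromosome 12, 6 of 11 at the kappa locus on chromosome 6, 1 of 8 at the lambda locus on chromosome 16 and 2 of 8 at the T cell receptor beta locus on chromosome 6. The T cell receptor gamma and alpha loci had 0 of 4 each. Over all windows high at 0 hpi the share was 4.85%, and loci with 4 to 11 such windows have too few to compare with it. The kappa locus was looked at after its values were seen, and its total H3K27Ac over chr6:67505630-70676751 was 4384 tags at 0 hpi and 7519 at 3 hpi. The T cell receptor gamma locus went from 807 to 5392 and the lambda locus from 2119 to 4212. The heavy chain locus had 25683 and 25930 tags, the T cell receptor alpha locus 2066 and 2227, and the T cell receptor beta locus 2849 and 2716. The median F of windows with a tag was 0.219 at 0 hpi and 0.332 at 3 hpi, and its part in these totals was not tested. By chromosome, early-loss windows were 3.83% (chromosome 5) to 6.31% (chromosome 12) of the windows high at 0 hpi there.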

How the data were processed

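ChIP-seq for H3K27Ac, H3K4Me1 and H3K27Me3 was done in C10 cells at 0, 3, 12, 24 and 48 hpi. The authors aligned reads to mm9 with Eland or Bowtie without mismatches and removed most identical tags. Which aligner served which library, and the versions, are not given in the sources used here. The deposited files hold the position of each 36 bp tag, without strand, one tag per line. Repeated positions were counted once, tags were placed at their midpoint, 18 bp from the start, and counted in 3000 bp windows of chromosomes 1 to 19 and X. Log2 changes had 1 tag added. The title of each sample gave its mark and time. Genes were taken from GENCODE vM1 and sequences from NCBIM37, which is mm9. Spi1 and Syk were matched under their older symbols Sfpi1 and Sykb, and 18 of 20 myeloid transcription factors were matched as coding genes. Antigen receptor loci were runs of 3 or more immunoglobulin or T cell receptor genes with gaps under 500000 bp. Intervals are at 95%, exact Poisson for tag counts and exact binomial for ratios of tags and for shares of windows, and no test was made. None covers the spread between libraries, and those on shares treat windows as independent. Counting was tested on simulated tags. Python 3.11.15, numpy 2.4.6, scipy 1.17.1 and matplotlib 3.10.9 were used.

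Named windows were the 8 largest H3K27Ac falls, the 3 longest runs, up to 3 windows per gene list, the 3 highest at 12 or 24 hpi, the extremes of H3K4Me1 and H3K27Me3 change, the 5 genes nearest to most windows and those at the limits. One window that this rule names is not reported here. Genes of the lists with a window are also counted by name, and Lef1, Cd79b and the antigen receptor loci were described after their values were seen. The windows and lists were chosen with earlier results of these data known. Alternatives tried were a shifted grid, repeated tags, thinning, other scalings, other limits, and leaving out gene starts or antigen receptor loci.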

Additional observations from a re-analysis of the deposited data

Results flagged for a closer look

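Chromosome Y was outside the windows and was looked at only for its tags. The H3K27Ac libraries of 3 and 48 hpi held 126 and 137 of every 1000000 tags on it, against 68.5, 67.8 and 66.9 in those of 0, 12 and 24 hpi. In the H3K4Me1 libraries the share was 43.7 to 57.0. In the H3K27Me3 libraries it was 122 at 48 hpi and 82.9 to 91.2 at the other times. The 3 and 48 hpi H3K27Ac libraries are those in which the early-loss windows were chosen as low, and the cause of the difference was not tested.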

How the results depend on the processing

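Each mark and time had 1 library, so no difference could be tested and no interval covers the spread between libraries. No paired analysis was possible because no group had more than 1 library and the labels share no replicate numbers. Under 11 alternatives, 109 values were recomputed for 10 results. Of these, 65 stayed inside the interval of the reported value, 42 moved further and 2 changed sign, and the cause was not tested. These intervals were taken over windows treated as independent and are not counting error on tags. The count of windows had no interval, and a change of less than 1.5 times was taken as staying inside. The number of early-loss windows was 1208 with libraries scaled by strong windows and 2387 with background windows. It was 1024 with a 0 hpi limit of 5, 1108 with a 48 hpi limit of 1 and 981 where the upper bound of the ratio had to be at most 0.5. Scaling by background windows gave 67.8% below 1.5 at 12 hpi and 59.7% at 24 hpi, and median log2 changes of 0.28 for H3K4Me1 at 3 hpi, the opposite sign to the -0.08 under the library mean, -0.60 for H3K4Me1 at 48 hpi and 0.24 for H3K27Me3 at 48 hpi. Scaling by strong windows gave 71.4%, 94.3%, 35.1% beside a window of 3 or more at 48 hpi, and -0.26, -1.46 and -0.15, the last with the opposite sign to 0.04. A 0 hpi limit of 5 gave 53.0%, 83.7%, 34.4%, -0.060 and -1.48 for the same measures up to H3K4Me1 at 48 hpi. A ratio limit of 0.4 gave 67.8% at 12 hpi, 89.0% at 24 hpi, and -0.10 and -1.46 for H3K4Me1 at 3 and 48 hpi. A 48 hpi limit of 1 gave 80.8% at 12 hpi, 96.0% at 24 hpi, 90.2% over 2500 bp from a start, 24.2% beside a window of 3 or more, and -1.53 for H3K4Me1 at 48 hpi. The bound on the ratio gave -0.10 and -1.51 for H3K4Me1 at 3 and 48 hpi, the shifted grid gave 89.8% over 2500 bp from a start, and thinning gave 0 for H3K27Me3. The medians of H3K4Me1 at 12 and 24 hpi were added after seeing the data. Under the library mean they were -0.82 and -1.13, with background windows -0.074 and -0.29, with strong windows -1.16 and -1.32, with a ratio limit of 0.4 -0.88 and -1.18, with a 48 hpi limit of 1 -0.93 and -1.26, with the bound on the ratio -0.92 and -1.23, and at 24 hpi with a 0 hpi limit of 5 -1.17.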
